A study of Mus musculus with 3 samples.

Results

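The potassium channel genes were taken as the protein-coding genes of GENCODE M39 whose symbol begins with Kcn, of which there were 94 among 21757 protein-coding genes. Peaks of 5-hydroxymethylcytosine (5hmC) enrichment from 3 replicates of mouse cerebellum DNA were merged wherever they overlapped, and a merged region was given to a gene when its midpoint lay in the gene body or within 1 kb upstream. Of 13342 merged regions, 10729 fell in protein-coding genes and 107 in Kcn genes. These 107 regions lay in 35 of the 94 genes, and 59 genes held none.

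The data come from hydroxymethylated DNA immunoprecipitation (hMeDIP), in which an antibody pulls down sonicated DNA fragments that carry 5hmC. The enriched fragments were sequenced without amplification on a nanopore device, so that each CpG of a fragment was also called as 5hmC, 5-methylcytosine (5mC) or unmodified cytosine (C). All 3 libraries were made from cerebellum of a female mouse aged 8 weeks, of the strain given in the labels as C57Bl6Cr, with no genetic change and no treatment named. Whole serum antibody against 5hmC was used for replicate 1, and IgG-purified antibody for the other 2 replicates. As judged from the library names, the 3 reactions share 1 animal, and the replicates therefore measure the scatter of pulldown and sequencing, which does not cover differences between mice. Each reaction started from 1 µg of DNA. No expression was measured, so that the tissue label could not be set beside marker genes. The peak lists of replicates 1, 2 and 3 hold 497, 8546 and 5166 peaks. The base-call lists hold 69910, 104238 and 75624 CpG base-calls respectively. Depth at single sites was low, since a CpG in a Kcn region had a median of 1 base-call in a replicate and at most 5.

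Potassium channels let potassium ions leave or enter a cell along their gradient and set the resting voltage, the shape of the action potential and the rate of firing. Pore-forming subunits fall into voltage-gated, inwardly rectifying, tandem-pore-domain and calcium- or sodium-activated families, and share a short selectivity filter in the pore. Cerebellar Purkinje and granule cells rely on many of these families for fast, regular firing, and neurons of the cerebellum are known for a high level of 5hmC, which is often found in the bodies of active genes.

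The sequences below show where the enriched DNA of the main Kcn regions lay (GRCm39). In the first set the forward strand is printed and capitals mark the CpG sites, at which the 3 states were called. The Kcnj11 window of 300 bases, chr7:45748345-45748644, is shown as it belongs to the only Kcn region with a peak in all 3 replicates. Each of the 120-base windows is taken from a region described further on. They lie in coding exons of Kcnj9 (chr1:172153273-172153392) and Kcnd2 (chr6:21216977-21217096), in a later intron of Kcnc1 (chr7:46086535-46086654) and in the first intron of Kcnk1 (chr8:126742003-126742122).
Kcnj11: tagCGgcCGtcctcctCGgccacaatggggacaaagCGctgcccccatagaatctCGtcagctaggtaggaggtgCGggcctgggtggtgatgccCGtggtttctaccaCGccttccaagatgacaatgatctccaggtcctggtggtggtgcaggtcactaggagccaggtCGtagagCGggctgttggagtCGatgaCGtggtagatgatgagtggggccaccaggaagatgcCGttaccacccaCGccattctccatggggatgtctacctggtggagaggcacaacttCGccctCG
Kcnj9: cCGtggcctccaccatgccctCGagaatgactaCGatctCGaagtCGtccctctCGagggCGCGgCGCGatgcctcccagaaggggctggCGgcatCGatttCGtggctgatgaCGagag
Kcnd2: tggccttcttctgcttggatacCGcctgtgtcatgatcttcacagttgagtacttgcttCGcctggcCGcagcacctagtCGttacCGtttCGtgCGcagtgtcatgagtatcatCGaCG
Kcnc1: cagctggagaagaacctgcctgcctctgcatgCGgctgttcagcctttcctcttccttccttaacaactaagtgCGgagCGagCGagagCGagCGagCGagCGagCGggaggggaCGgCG
Kcnk1: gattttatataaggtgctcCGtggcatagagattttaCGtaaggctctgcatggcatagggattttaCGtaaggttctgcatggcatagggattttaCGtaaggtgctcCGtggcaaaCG
All 16 CpG sites of the Kcnj11 window had a base-call, and 42 of 89 base-calls were 5hmC over the 3 replicates (47.2%). The Kcnd2 window had 10 of 20 and the Kcnj9 window 25 of 64. The printed intron windows were lower, with 8 of 44 in Kcnc1 (18.2%) and 5 of 20 in Kcnk1. Windows that are not printed did not keep this order. The first-intron windows of Kcnj12 and Kcnd3 had 6 of 11 and 2 of 7, and the coding-exon window of Kcna1 had 5 of 19. In the Kcnk1 window the same run of bases around a CpG recurs along the intron, and in the Kcnc1 window CpG sites follow each other in a run of CGag units.

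The second set shows the stretch that encodes the selectivity filter in the 2 genes where a region with peaks of at least 2 replicates covered it. Here the strand of the gene is printed, which is the reverse strand for both, and capitals mark the 15 bases of the filter signature. The Kcna1 stretch is chr6:126619146-126619250 and the Kcnj11 stretch is chr7:45748875-45748979.
Kcna1 filter: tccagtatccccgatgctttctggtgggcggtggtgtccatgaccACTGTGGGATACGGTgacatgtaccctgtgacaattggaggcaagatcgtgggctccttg
Kcnj11 filter: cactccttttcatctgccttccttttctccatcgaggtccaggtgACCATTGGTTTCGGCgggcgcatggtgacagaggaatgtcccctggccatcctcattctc
In the Kcnj11 stretch 10 of 16 base-calls at 4 CpG sites were 5hmC, and in the Kcna1 stretch 4 of 7.

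The first question was how often Kcn genes carried a region, given their length. A region was found in 35 of 94 Kcn genes (37.2%), against 20.02% of all protein-coding genes. Kcn genes were also longer, with a median of 32.6 kb against 19.1 kb for the other protein-coding genes. Of the 18 Kcn genes under 10 kb, 2 held a region (11.1%, against 6.44% of all genes of that length). Of the 37 genes of 10 to 50 kb, 10 did (27.0% against 17.3%). The gap was widest among the 21 genes of 50 to 200 kb, of which 13 held a region (61.9% against 38.4%). Among the 18 genes over 200 kb the order turned, with 10 genes (55.6%) against 62.6% of all such genes, and with a mean of 2.33 regions per Kcn gene against 3.50. Summed over gene bodies, Kcn genes had 9.82 regions per Mb and other protein-coding genes 9.90. Kcn genes held 8.47 CpG sites per kb and other genes 10.02. With only peaks of a fold enrichment of at least 4, 34 Kcn regions in 19 genes were left.

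**Figure D1:**
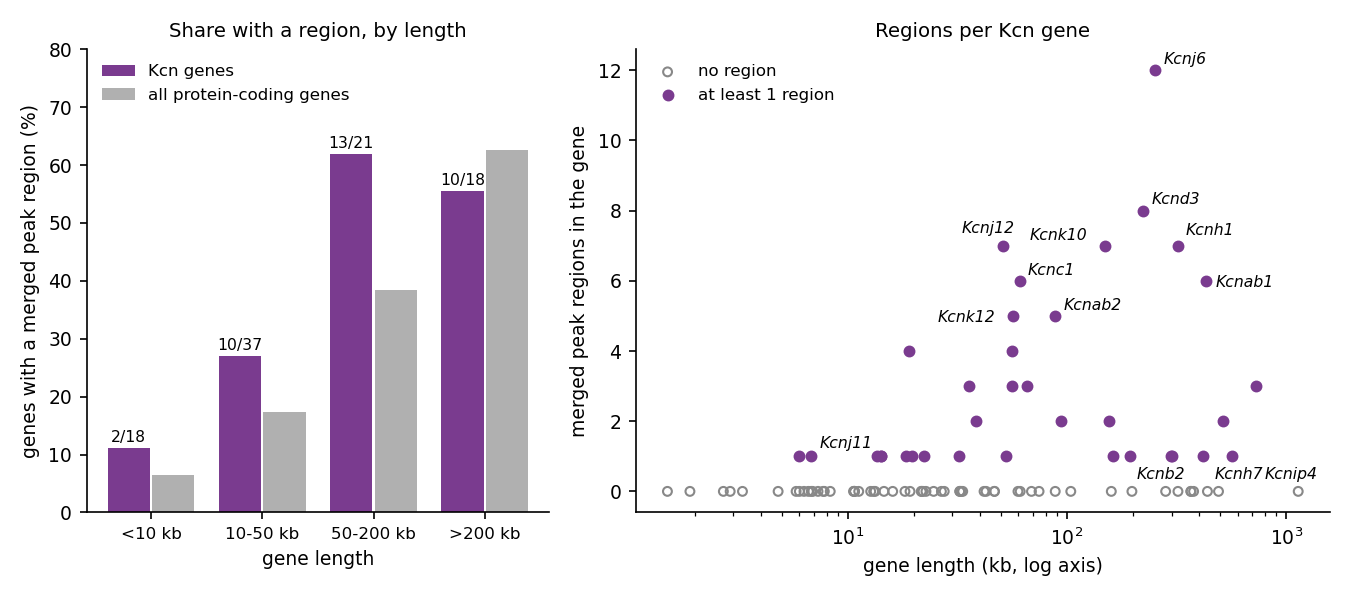
Left, share of genes (%, vertical axis) with at least 1 merged region in 4 classes of gene length, for Kcn genes (purple, counts above the bars) and all protein-coding genes (grey). Right, merged regions per Kcn gene (vertical axis) against gene length (kb, log axis), 1 point per gene, filled where the gene held a region. Kcnj6 held 12 regions in 252.7 kb, while Kcnip4 held none in 1135 kb.

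Whether peak density differed between Kcn genes and the rest depended on which peaks were counted and on the scale. Peaks with a midpoint in a Kcn gene numbered 5, 74 and 37 in replicates 1, 2 and 3. This came to 0.459, 6.79 and 3.40 peaks per Mb, against 0.375, 6.31 and 3.85 per Mb in other protein-coding genes. The ratio of Kcn to other genes was 1.23, 1.08 and 0.883, so that Kcn genes were denser in replicates 1 and 2 and sparser in replicate 3. Over all peaks, per Mb, the difference was within the spread between replicates (mean log2 ratio 0.07 ± 0.24, SD, n = 3, two-sided exact permutation test over the signs of the within-replicate differences, p = 0.75, Benjamini-Hochberg adjusted p = 0.94 over 10 tests). The mean turned to -0.04 without replicate 1 and to -0.05 without Kcnj11. Kcn genes were denser in 3 of 3 replicates with peaks of a fold enrichment of at least 4 (mean log2 ratio 0.63 ± 0.32), per CpG instead of per Mb (0.32 ± 0.24) and with peaks of a q of at most 0.01 (0.22 ± 0.11), each with p = 0.25 by the same exact permutation test (SD, n = 3). With 3 replicates this test cannot give a p below 0.25. At least 1 peak was found in 5, 29 and 23 Kcn genes in the same order (5.32%, 30.9% and 24.5%, against 1.74%, 15.2% and 11.1% of all protein-coding genes).

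Most Kcn regions rested on 1 replicate. Peaks of a single replicate made up 99 of the 107 regions, 7 regions held peaks of 2 replicates and 1 held peaks of all 3. The share with at least 2 replicates was 7.48%, against 6.10% of all regions in protein-coding genes. By gene, 8 of the 94 (8.51%) had a region of at least 2 replicates, against 2.54% of all protein-coding genes. Without replicate 2 a single such gene was left, and without replicate 3 there were 3. The 8 genes were Kcnj11, Kcnj9, Kcnj12, Kcnd2, Kcnd3, Kcna1, Kcnc1 and Kcnk1. Fold enrichment (the peak's pileup over local background) was low and took a few recurring values. In replicate 2, 20 of 74 Kcn peaks sat at the most common value of 3.83, and in replicate 3, 16 of 37 sat at 3.87, which were also the medians of all Kcn peaks in these replicates. The median of other protein-coding genes was the same to 2 decimals in both. In replicate 1 the median of the 5 Kcn peaks was 5.42, against 4.72. The mean difference of 0.23 ± 0.40 (SD, n = 3) came from replicate 1 and its 5 peaks. As the medians of replicates 2 and 3 are ties at a recurring value, no p is given for it, although it counts among the 10 tests.

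**Figure D2:**
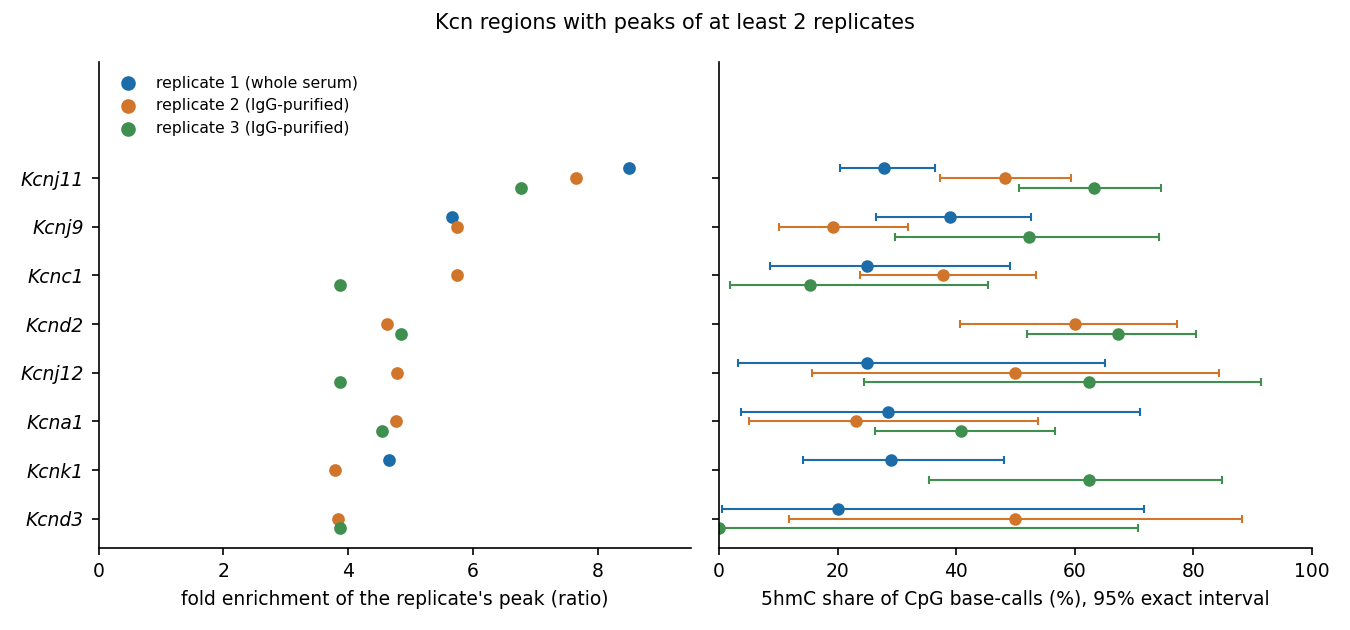
The 8 Kcn regions with peaks of at least 2 replicates. Left, fold enrichment of each replicate's peak (ratio, no point where that replicate had no peak). Right, share of CpG base-calls that were 5hmC (%) with 95% exact binomial intervals, no point where a replicate had no base-call. Kcnj11 had the highest peak in every replicate, from 6.78 to 8.50, and Kcnd2 the highest 5hmC share in replicates 2 and 3.

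Inwardly rectifying channels, encoded by the Kcnj genes, pass potassium more easily into the cell than out of it. The family had 25 regions in 5 of its 15 genes, against 37.2% of all Kcn genes and 20.02% of all protein-coding genes with a region. This came to 32.4 regions per Mb, the highest density of the 12 groups into which the Kcn genes were sorted. It rested mainly on Kcnj6, Kcnj12 and Kcnj9, which held 12, 7 and 4 of the 25 regions. Kcnj11 encodes the pore of the channel that closes when cellular ATP is high. Its coding-exon region of 1417 bp (chr7:45748146-45749562) had a fold enrichment of 8.50, 7.66 and 6.78 in replicates 1, 2 and 3. These included 2 of the 3 highest peaks of all Kcn genes. The 5hmC base-calls there were 36 of 129 (27.9%, 95% exact interval 20.4 to 36.5), 41 of 85 (48.2%, 37.3 to 59.3) and 43 of 68 (63.2%, 50.7 to 74.6). The mean was 46.5% ± 17.7 (SD, n = 3), with replicate 1 lowest and replicate 3 highest. Base-calls of the same read are not independent, so that the intervals are too narrow to compare replicates. Of 61 CpG sites with a base-call in this region, 54 had at least 1 5hmC call. In bulk tissue, 5hmC on a share of the cells and on a share of the alleles cannot be told apart.

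Kcnj9 and Kcnj6 encode subunits of the G-protein-gated channel that slows firing after neurotransmitter binding, and Kcnj3 encodes their usual partner. Kcnj9 was the densest Kcn gene, with 4 regions in 18.9 kb (20.1 per 100 kb of the gene and the 1 kb upstream), 1 of which lay also in Igsf8. Its region in the coding exon (chr1:172153063-172153536) had peaks of 5.67 in replicate 1 and 5.74 in replicate 2 and none in replicate 3. 5hmC made up 23 of 59, 11 of 57 and 11 of 21 base-calls there, so the replicate without a peak had the highest share and replicate 2 the lowest. Kcnj6 had the most regions of any Kcn gene, 12 over 252.7 kb, every one with a peak of a single replicate (1 of replicate 1, 8 of replicate 2 and 3 of replicate 3). Of these 12 regions, 10 lay in later introns. Its 5hmC base-calls were 5 of 27, 28 of 76 and 8 of 28. Kcnj3 had 1 region in 162.4 kb, of replicate 3, with 1 5hmC call among 6. Kcnj12, a strong rectifier that helps to hold the resting voltage, had 7 regions in 51.2 kb (13.4 per 100 kb). The region shared by replicates 2 and 3 lay in the first intron (chr11:60957479-60957960, fold enrichment 4.79 and 3.87), with 2, 4 and 5 5hmC calls among 8 in each replicate. Its coding-exon region, a peak of replicate 2 alone, had 5 of 12, 10 of 12 and 4 of 6. No region was found in Kcnj10, the main inward rectifier of glia including Bergmann glia.

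The Shaker, Shab, Shaw and Shal subunits (Kcna to Kcnd) open on depolarisation and carry delayed or transient outward currents. Kcna1, a low-threshold subunit of cerebellar axons and basket cell terminals, had 1 region, which lay in its coding exon (chr6:126618980-126619756). Peaks were called in replicates 2 and 3 at 4.77 and 4.55, and 5hmC made up 2 of 7, 3 of 13 and 18 of 44 base-calls. Kcna2, which assembles with Kcna1, had a coding-exon peak of 4.79 in replicate 2 only. There 5mC was the main state, with 21 of 28 base-calls (75.0%), and 5hmC accounted for 1 of 9, 2 of 11 and 1 of 8. The other 6 Kcna genes, including Kcna6, had no region.

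Kcnc1 encodes a Shaw subunit that lets neurons fire at high rates, and had 6 regions in 60.7 kb. A peak of 7.06 in replicate 2 (chr7:46044478-46044989, about 0.94 kb upstream of the gene start) was the third-highest Kcn peak. In that region 14 of 22 base-calls of replicate 2 and 2 of 4 of replicate 3 were 5hmC, while replicate 1 had no base-call. The region of 2 replicates lay in a later intron (chr7:46086196-46086834, 5.74 in replicate 2 and 3.87 in replicate 3), with 5hmC at 5 of 20, 17 of 45 and 2 of 13 base-calls. The last 3 regions of Kcnc1 lay also in Sergef and cannot be given to one gene alone. Kcnc4 had 1 region, and Kcnc2 had none.

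Kcnd2 and Kcnd3 encode Shal subunits of the A-type current that delays firing in granule cells. Kcnd2 had the highest 5hmC share among the Kcn regions of 2 or more replicates. Its region at the start of the coding sequence (chr6:21216322-21217343) had peaks of 4.62 in replicate 2 and 4.84 in replicate 3, with 18 of 30 base-calls as 5hmC (40.6 to 77.3%) and 31 of 46 (67.4%, 52.0 to 80.5). Replicate 1 had neither a peak nor a base-call there. Of 40 CpG sites with a base-call, 29 had a 5hmC call, spread over the whole region. The rest of this gene of 514.9 kb held 1 further region. Kcnd3, shorter at 222.0 kb, held 8 regions. The region of replicates 2 and 3 lay in its first intron (chr3:105361843-105362375, fold enrichment 3.83 and 3.87), where 5hmC base-calls were few (1 of 5, 3 of 6 and 0 of 3). Over its 8 regions 5hmC made up 12 of 23, 15 of 37 and 9 of 35 base-calls (52.2%, 40.5% and 25.7%), lowest in replicate 3. For all Kcnd genes it was 12 of 23, 33 of 67 and 40 of 81, where the calls of replicate 1 came from Kcnd3 alone.

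The cytosine states of the Kcnj11 region were not mixed evenly along it. Unmodified cytosine made up 33 of 53, 19 of 47 and 3 of 16 base-calls on the side of the centre nearer the gene's start, against 14 of 76, 2 of 38 and 7 of 52 on the other side. The 5hmC share was lower on the side nearer the start in each replicate, at 22.6%, 42.6% and 43.8% against 31.6%, 55.3% and 69.2%. In Kcnj9 unmodified calls also made up more of the side nearer the start, at 40 of 106 against 5 of 31 over the 3 replicates. The order was the same in each replicate, with 2 base-calls on the farther side in replicate 3. In Kcnd2 unmodified calls were few on both sides (1 of 35 and 4 of 41 over the 3 replicates). The sides were compared after the values had been seen, and are given as a description.

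**Figure D3:**
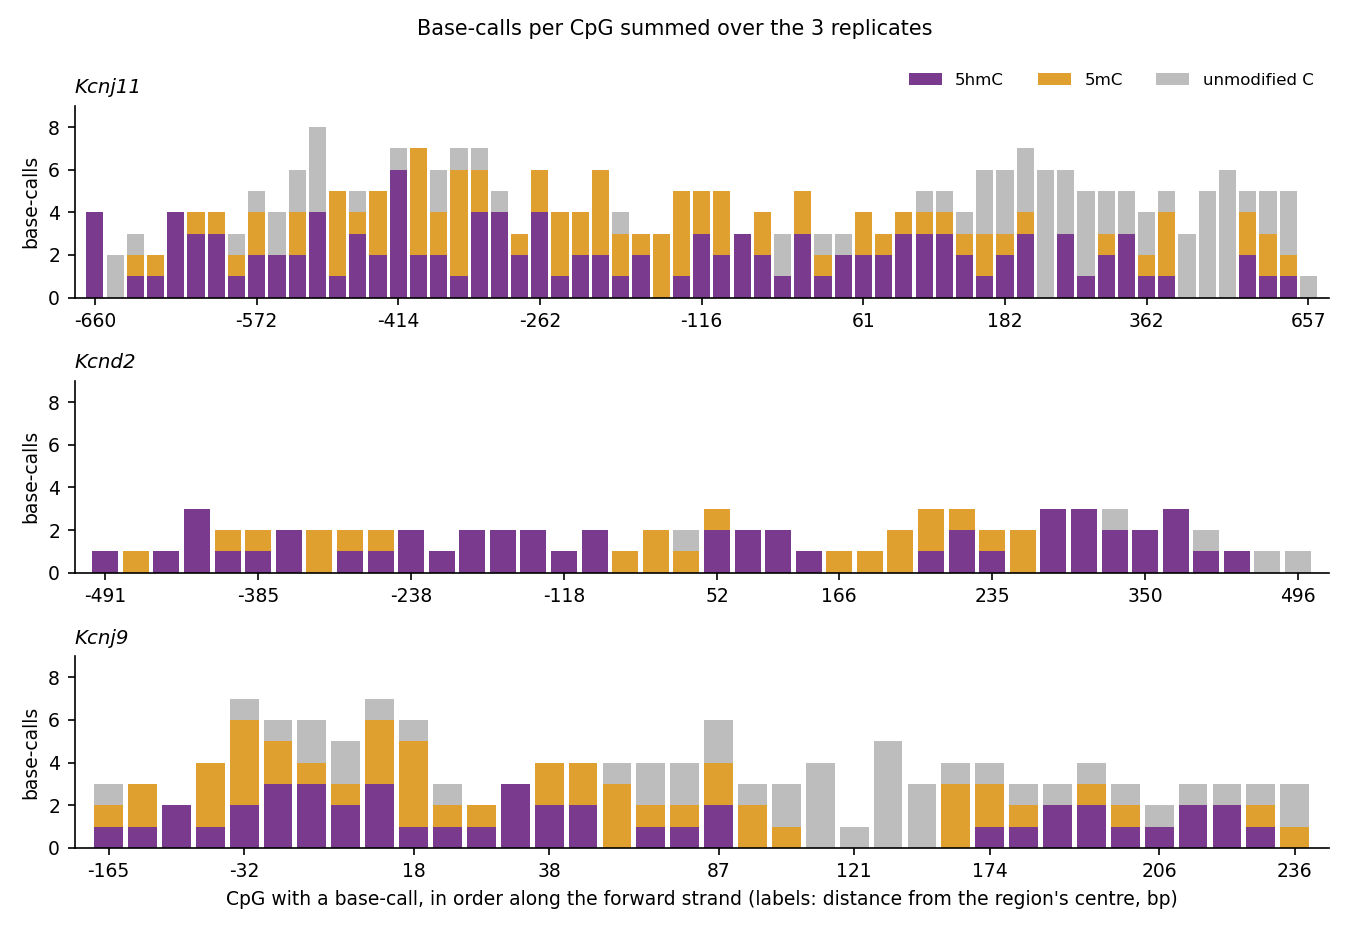
Base-calls at each CpG (vertical axis, counts summed over the 3 replicates) of the coding-exon regions of Kcnj11, Kcnd2 and Kcnj9, in order along the forward strand, with the distance from the region's centre (bp) given below the axis and colours for 5hmC, 5mC and unmodified C. The starts of Kcnj11 and Kcnj9 lie to the right and that of Kcnd2 to the left. Unmodified calls lie mainly to the right in Kcnj11 and in Kcnj9, where most base-calls of any state do. In Kcnd2 5hmC calls run along the whole region.

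The Kcnh genes encode ether-à-go-go type channels, and 4 of 8 had a region (against 20.02% of all protein-coding genes), with 10 regions in all. Kcnh1 had 7 of these in 319.4 kb, every one from a single replicate, and 5hmC made up 7 of 22, 17 of 33 and 17 of 29 of its base-calls. The last 2 regions of Kcnh1 also lay in Hhat. Kcnh2, which is best known from the heart, had a coding-exon peak of 5.68 in replicate 2, with 8 of 39 base-calls as 5hmC and none in the other replicates. Kcnh7, of 491.2 kb, and Kcnh8, of 378.0 kb, had no region. Some Kcnq genes, among them Kcnq3 and Kcnq5, encode channels of the M-current that damps repetitive firing. Kcnq3 had 1 region in 300.3 kb and Kcnq5 had 1 in 563.5 kb, with 1 of 5 and 2 of 8 base-calls as 5hmC, and Kcnq1 had none.

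Tandem-pore-domain channels, encoded by the Kcnk genes, carry the leak current. The family had 18 regions (24.4 per Mb) in 5 of 14 genes, against 20.02% of all protein-coding genes with a region. Kcnk1 had 3 regions in 35.6 kb. The region in its first intron (chr8:126741813-126742198) had peaks of 4.65 in replicate 1 and 3.79 in replicate 2. 9 of 31 base-calls of replicate 1 and 10 of 16 of replicate 3 were 5hmC, while replicate 2 had no base-call there in spite of its peak. The base-call lists hold the forward strand alone, and why replicate 2 had no base-call in this region was not tested. Kcnk10 had 7 regions in 148.9 kb and Kcnk12 had 5 in 56.4 kb, all 12 from single replicates. In Kcnk12 the regions lay in the first intron, and 16 of 27, 6 of 21 and 13 of 30 base-calls were 5hmC. Kcnk3, an acid-sensitive leak channel of granule cells, had 2 regions of replicate 2, in which 1 of 11 base-calls was 5hmC. Its close relative Kcnk9 had none.

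Calcium- and sodium-activated channels shape the pause after a spike or a burst. Regions were found in 6 of 12 such genes (against 20.02% of all protein-coding genes), with 14 regions in 2.27 Mb. Kcnma1, the pore of the large-conductance channel and the longest of these genes at 725.1 kb, had 3 regions, and its auxiliary gene Kcnmb4 had 4 in 56.1 kb. In Kcnmb4 5mC was the main state (56.5% of 62 base-calls) and 5hmC made up 2 of 11, 7 of 43 and 1 of 8. Kcnn2, which sets Purkinje cell firing, had 1 region of replicate 3 with 6 base-calls in that replicate, none of them 5hmC, while 3 of 7 base-calls of replicate 2 were 5hmC and replicate 1 had no base-call. A count of 0 among 6 does not exclude a sizeable share (95% exact interval 0 to 45.9%). The sodium-activated channel gene Kcnt1 had 3 regions in 55.8 kb, and its relative Kcnt2 none in 368.3 kb. In Kcnt1 5hmC made up 4 of 17, 8 of 28 and 4 of 16 base-calls. Those of replicates 1 and 3 all lay in the later-intron region and those of replicate 2 in the other 2 regions, so that these shares are not of the same sites.

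Auxiliary subunits (Kcnab, Kcne and Kcnip) bind to voltage-gated pores and change their gating or transport. They had 15 regions in 4 of 12 genes, against 20.02% of all protein-coding genes with a region. Kcnab1 had 6 in 429.0 kb with 20 base-calls, of which 13 were 5hmC, 12 of them in replicate 2. Kcnab2 had 5 in 88.4 kb, with 4 of 15, 16 of 65 and 4 of 7. Kcnip3 and Kcne1 had 3 and 1. Kcnip4, the longest Kcn gene at 1135 kb, had no region, nor did Kcnip1 at 366.9 kb. Of the 61 protein-coding genes of at least 1 Mb, 22 (36.1%) also had none.

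The 10 silent subunit genes (Kcnf, Kcng, Kcns and Kcnv), whose products work only together with other voltage-gated subunits, had no region in 0.420 Mb. The longest of these 10 was Kcnv1 at 159.2 kb. A region lay in 6.44% of protein-coding genes under 10 kb, 17.3% of 10 to 50 kb and 38.4% of 50 to 200 kb. Most genes of these lengths thus held none. In all, the 59 genes without a region spanned 5.32 Mb and had a median length of 21.7 kb, against 60.7 kb for the 35 with one. The 5 longest of them were Kcnip4, Kcnh7, Kcnb2, Kcnh8 and Kcnt2. By contrast, 9 genes with at least 5 regions (9.57%, against 2.64% of all protein-coding genes) held 63 of the 107 regions.

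**Figure D4:**
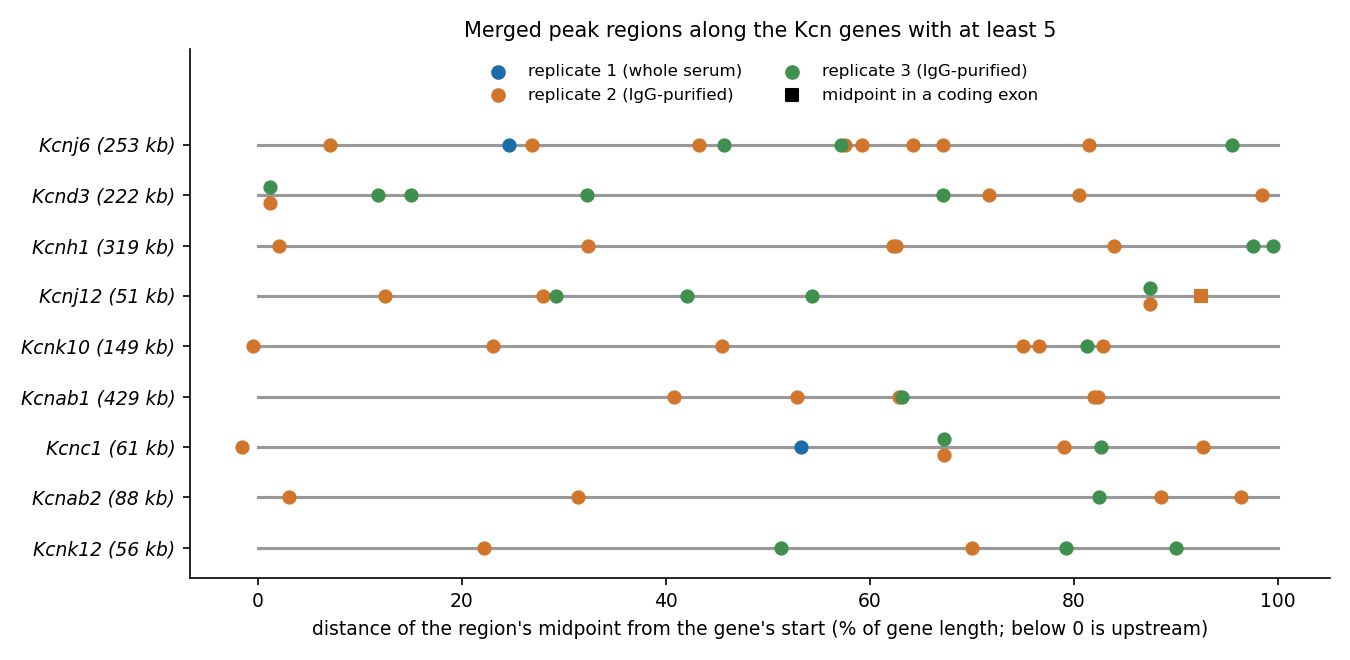
Position of merged regions along the 9 Kcn genes with at least 5, as the distance of the midpoint from the gene's start (horizontal axis, % of gene length, negative values upstream). Colours give the replicate whose peak was called, squares mark midpoints in a coding exon, and stacked points are 1 region with peaks of 2 replicates. Regions were scattered along the genes and 3 of these genes held a region of 2 replicates.

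Proteins that bind potassium channels but carry other symbols were taken from a list of 23 genes. A region was found in 11 of them (47.8%, against 20.02% of all protein-coding genes), with 28 regions in all. The list is rich in long genes, with 7 of 23 over 200 kb, of which 5 held a region (71.4%, against 62.6% of all genes of that length). Of its 16 shorter genes 6 held one (37.5%, against 17.9%). In Adam11 and Dlg2 (8.70%, against 2.54% of all protein-coding genes) a region held peaks of at least 2 replicates. Adam11, needed for Kcna channels at basket cell terminals, had 5 regions in 18.9 kb, and 5hmC made up 3 of 13, 5 of 22 and 7 of 25 base-calls. Dlg2, a scaffold that binds Kcna channels, had 2 regions in 1973 kb, with 5hmC at 8 of 32 base-calls in replicate 2 and 5 of 46 in replicate 3, and no base-call in replicate 1. Abcc8, whose product surrounds the Kcnj11 pore and is the target of sulfonylureas, had 4 regions, with 5hmC at 3 of 7, 13 of 36 and 14 of 19 base-calls. Dpp6 and Dpp10, partners of the Kcnd subunits, had 2 and 1 regions in 910.3 kb and 1525 kb. Cntnap2, which clusters Kcna channels along axons and is the longest gene of the list at 2245 kb, had none.

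Within the genes, Kcn regions lay mostly in introns, 35 in the first intron and 46 in later ones. Coding exons held 12 (11.2%, against 9.14% in other genes), in 11 Kcn genes. Coding-exon peaks were a larger part of Kcn peaks in each replicate, with 2 of 5, 11 of 74 and 4 of 37 (40.0%, 14.9% and 10.8%, against 15.4%, 8.99% and 10.5% in other genes). The mean difference was 10.3 percentage points ± 12.7 (SD, n = 3, two-sided exact permutation test, p = 0.25, adjusted p = 0.5 over 10 tests). It ranged from 0.32 to 24.6 points and was largest in the replicate with 5 Kcn peaks. The mean was 3.10 points without replicate 1 and 4.04 without Kcnj11, where replicate 3 turned (3 of 36 peaks, 8.33%, against 10.5%, exact permutation p = 0.5), but 21.0 ± 3.99 with peaks of a fold enrichment of at least 4 and 16.1 ± 14.7 against genes of at least 50 kb (SD, n = 3). Of the 8 Kcn regions with peaks of at least 2 replicates, 4 lay in coding exons, against 116 of 646 such regions of other genes (17.96%). Coding bases of the selectivity filter signature (threonine or serine, then valine, isoleucine or leucine, glycine, tyrosine or phenylalanine, and glycine) were found in the canonical protein of 75 Kcn genes. A region with peaks of at least 2 replicates covered them in Kcnj11 (3 replicates) and Kcna1 (2).

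The second question was whether the enriched DNA of Kcn genes carried another mix of cytosine states than that of other genes. Over all Kcn regions the 5hmC share was 28.5% of 569 base-calls (95% exact interval 24.8 to 32.4), 32.8% of 950 (29.9 to 35.9) and 42.7% of 522 (38.4 to 47.1) in replicates 1, 2 and 3. In regions of other protein-coding genes it made up 30.6%, 32.3% and 31.5%. Kcn regions therefore lay 2.10 percentage points below other genes in replicate 1, 0.50 above in replicate 2 and 11.2 above in replicate 3. The mean difference of 3.19 points ± 7.03 (SD, n = 3) was within the spread between replicates (two-sided exact permutation test, p = 0.75, adjusted p = 0.94 over 10 tests), and turned to -2.21 points without replicate 3. Kcn regions were higher in 3 of 3 replicates when each region had equal weight (3.74 points ± 2.25), with only peaks of the same replicate (4.45 ± 6.95) and with at least 3 calls per site (18.3 ± 23.3, on 9 Kcn sites in replicate 3), each with p = 0.25 by the same exact permutation test (SD, n = 3). Without Kcnj11, which gave 22.7%, 8.95% and 13.03% of the Kcn base-calls, the shares were 28.6%, 31.3% and 39.7%. Intervals cover counting error only, and base-calls of the same read are not independent.

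5mC was lower in Kcn regions than in regions of other genes in all 3 replicates, at 39.4% against 40.6%, 33.7% against 40.0% and 36.2% against 41.0%. The mean difference was -4.12 percentage points ± 2.58 (SD, n = 3, two-sided exact permutation test, p = 0.25, the smallest possible, adjusted p = 0.5 over 10 tests). The difference was -7.67 points without replicate 2, -6.55 ± 1.15 (SD, n = 3) in regions with a peak of the same replicate and -21.0 ± 20.8 with at least 3 calls per site. It no longer had 1 sign in all 3 replicates with peaks of a fold enrichment of at least 4 (-6.56 ± 6.55), with a q of at most 0.01 (-4.09 ± 3.62) or with equal weight for each region (-1.70 ± 3.75), each with p = 0.5 by the exact permutation test (n = 3). Counted only in regions where a replicate had no peak of its own, it turned to 0.82. Unmodified cytosine was higher in Kcn regions in replicates 1 and 2 (32.2% against 28.8% and 33.5% against 27.7%) and lower in replicate 3 (21.1% against 27.4%), with a mean difference of 0.93 points ± 6.43 (SD, n = 3, two-sided exact permutation test, p = 1.00).

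**Figure D5:**
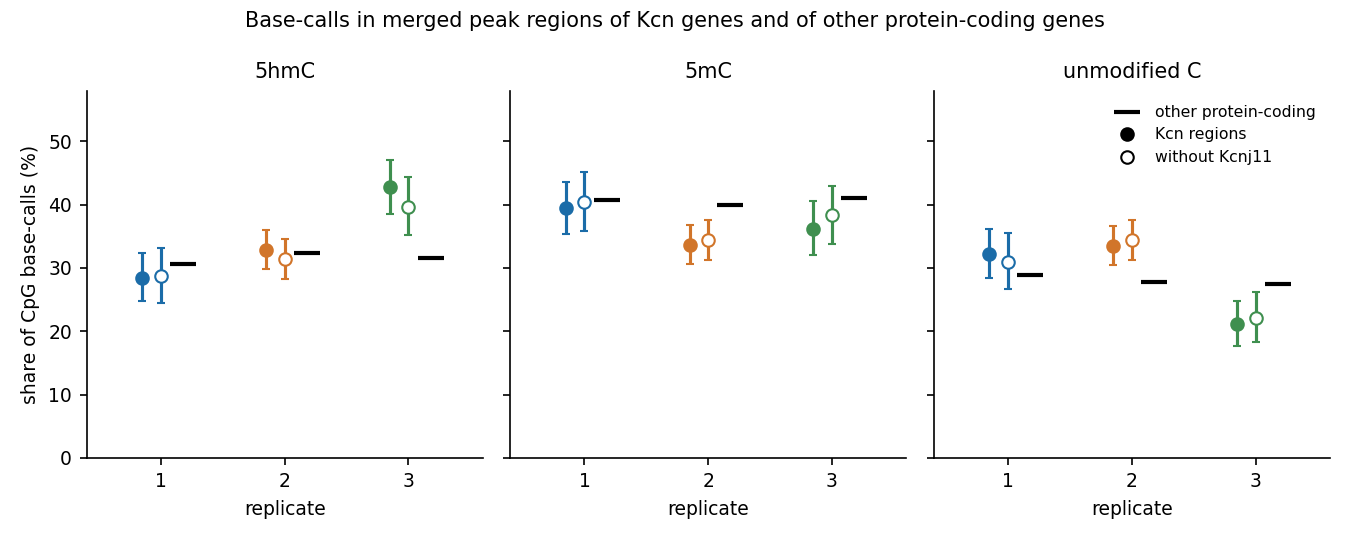
Share of CpG base-calls (%, vertical axis) that were 5hmC, 5mC and unmodified C in each replicate, in all Kcn regions (filled points), in Kcn regions without Kcnj11 (open points) and in regions of other protein-coding genes (black bars). Error bars are 95% exact binomial intervals. In replicate 3 the 5hmC share of Kcn regions, 42.7%, lay above the 31.5% of other genes.

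By place in the gene, the gap of replicate 3 was widest in coding exons. In coding-exon Kcn regions 5hmC made up 25.5%, 27.5% and 50.9% of base-calls in replicates 1 to 3, against 25.6%, 26.7% and 27.5% in other genes. Leaving out Kcnj11 the Kcn shares were 23.9%, 22.5% and 45.3%, the last of 148 base-calls (37.1 to 53.7). Without that gene replicates 1 and 2 thus lay below other genes, and replicate 3 above. In the first intron Kcn regions had 33.6%, 41.1% and 43.8%, against 35.7%, 37.5% and 36.9%, and in later introns 32.7%, 36.6% and 31.7% against 31.1%, 32.4% and 30.5%. These differences by place were not tested. Among regions with at least 10 base-calls over the replicates, 5hmC reached 50% in 9 of 45 Kcn regions, against 18.1% in all protein-coding genes. These 9 lay in Kcnd2, Kcnj12, Kcnc1, Kcnk12, Kcnk10, Kcnn3, Kcnj6 and Kcnh1, the last with 2. The lowest shares among the 45 included the coding-exon regions of Kcne1 (2 of 20) and Kcna2 (4 of 28).

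Calcium channel genes (symbols beginning Cacn) and a group of sodium, HCN, TRP and chloride channel genes were taken as the gene groups most like the Kcn genes. Of 26 Cacn genes 14 had a region (53.8%, against 20.02% of all protein-coding genes), including all 8 over 200 kb, with 134 regions in all, more than the 107 of 94 Kcn genes. Peak density in Kcn genes was 0.761, 0.363 and 0.375 times that in Cacn genes in replicates 1 to 3, lower in 3 of 3 (mean log2 ratio -1.09 ± 0.60, SD, n = 3, two-sided exact permutation test, p = 0.25, the smallest possible, adjusted p = 0.5 over 10 tests). 5hmC shares were 36.5%, 37.2% and 33.3% in Cacn regions, higher than in Kcn regions in replicates 1 and 2 and lower in replicate 3 (mean difference of Kcn from Cacn -0.98 points ± 9.20, SD, n = 3, two-sided exact permutation test, p = 1.00). Of 55 sodium, HCN, TRP and chloride channel genes 19 had a region (34.5%), with 49 regions. Peak density in Kcn genes was 2.26, 1.04 and 0.927 times theirs (p = 0.75 by the exact permutation test, adjusted p = 0.94 over 10 tests). Their 5hmC shares were 24.6%, 27.3% and 31.1%, lower than those of Kcn regions in all 3 replicates, by 7.02 points ± 4.06 on average (SD, n = 3, two-sided exact permutation test, p = 0.25, adjusted p = 0.5 over 10 tests). The group had 1 peak in replicate 1, so its values there rest on regions called mainly in the other replicates.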

How the data were processed

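The processed files of 3 hMeDIP libraries of 1 group were used, mapped by the replicate number in the labels. Peak names inside the lists carry other replicate numbers or none, and each list was kept with the sample it was deposited under, on which the match of peaks to antibody and base-calls rests. The authors base-called reads with Dorado 0.5.1, aligned them to mm39 (GRCm39) with minimap2 2.24 and ran MACS2 2.2.6 for narrow peaks, replicate by replicate, with a library of DNA that had not been immunoprecipitated as control. The deposited peak lists give a fold enrichment (a ratio), a display score, the summit offset and the −log10 of a p-value and a q-value. The authors counted 5hmC, 5mC and C calls at CpG sites with modkit 0.2.8, and the deposited counts and percent values cover sites within a peak of any replicate, all on the forward strand. According to the methods, masked repeats were left out of the counts. Depth per replicate is given with the groups.

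Peaks were merged where they overlapped by at least 1 bp and assigned to GENCODE M39 protein-coding genes by midpoint, and their place (exon or intron) was read from the canonical transcript. The base-calls of a merged region were summed per replicate, also where that replicate had no peak. Sequences were read from GRCm39. Kcn genes were compared with other genes within each replicate, with a two-sided exact permutation test of 8 sign patterns. The functions were tested on simulated data. The Kcn genes, the partner list and the genes named were chosen with earlier results of these data known. The text names Kcnj11, genes with a region of at least 2 replicates, the 5 genes with the most regions, regions per 100 kb (of those with at least 2 regions) or base-calls, the 3 highest peaks, the 5 longest genes without a region and a list of cerebellar potassium channel genes, and other genes it names were added after their values were seen. Results of some genes that fall under these rules are not reported here. Alternatives covered peak thresholds (fold enrichment of 4, q of 0.01), overlap and merging rules, the minimum number of calls, weighting, very deep sites, gene length and each replicate. Computations used samtools 1.23.1, pysam 0.24.0, scipy 1.17.1, pandas 2.3.3, numpy 2.4.6 and matplotlib 3.10.9 under Python 3.11.15.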

Additional observations from a re-analysis of the deposited data

Results flagged for a closer look

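The 5hmC share of Kcn regions against that of other protein-coding genes went one way with the whole serum antibody and the other way with the purified antibody. The difference was -2.10 percentage points in replicate 1 (whole serum), 0.502 in replicate 2 and 11.2 in replicate 3 (both IgG-purified). These signs depended on the base-calls counted. Without Kcnj11 replicate 2 was at 31.3% against 32.3%, below other genes like replicate 1. Replicate 1 was above them with only peaks of its own (29.1% against 28.4%) and with at least 3 calls per site (25.4% against 25.0%). With 1 library of whole serum this difference between antibodies was not tested, and antibody and library cannot be told apart. Replicate 1 also had 5 Kcn peaks, so that most of its Kcn base-calls lie in regions called in the other replicates.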

How the results depend on the processing

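No paired analysis was possible because the labels give 1 group, so that replicate numbers pair no samples across groups. Kcn regions numbered 34 with a fold enrichment of at least 4 and 41 to 105 with 1 replicate left out (41 without replicate 2), genes with a region 19 and 24 to 35, and genes with a region of at least 2 replicates 4 and 1 to 6 (1 without replicate 2 and 3 without replicate 3). The log2 ratio of peak density changed sign without replicate 1 (-0.0375, range -0.0375 to 0.199) and without Kcnj11 (-0.0535, an alternative chosen after seeing the data). The 5hmC difference was -2.21 points without replicate 3 (range -2.21 to 7.54). In regions without a peak of that replicate the 5mC difference was 0.816 points and the unmodified C difference -2.16. The latter was -0.528 as a mean of sites, -2.05 as a mean of regions and -0.281 to 5.70 with 1 replicate left out. The cause of these changes was not tested. Of 113 alternatives, 99 kept the direction or, for counts and the Kcnj11 share, were labelled as not moved, counting 9 for median fold enrichment. That label was wide. It took in 76 regions against 107 and 24 genes with a region against 35. For the 5hmC share of the Kcnj11 region it took in 37.8% and 55.7% against 46.5%. Those for the coding-exon share all kept the direction of the mean, while without Kcnj11 replicate 3 turned. For median fold enrichment no direction can be read without replicate 1, since the medians of the other replicates are ties. No alternative for a test can pass a threshold of 0.05, since the smallest p is 0.25 with 3 replicates and 0.5 with 2. Depth limits the base-call shares, since with at least 3 calls per site 9 Kcn sites were left in replicate 3 and with at least 5 calls none.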
